A study of Drosophila melanogaster with 2 samples.

Results

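The genes described here are lt, rl, cta, Nipped-A, Nipped-B, d4, gus and Spf30, genes of Drosophila melanogaster that lie in or beside pericentromeric heterochromatin. They are 8 of the 13945 protein-coding genes of the major arms (2L, 2R, 3L, 3R and X) and chromosome 4, and they were chosen by name with the peaks at their promoters already known. For each gene, every peak whose summit lay within 500 bp of one of its annotated start sites, or anywhere inside the gene, was taken from each deposited peak list. The promoter counts, signals, ranks and widths below are therefore a description, and no test was made on them.

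The data came from ChIP-seq with an antibody to GFP on embryos of a transgenic line that expresses CG30020 with eGFP joined to its C terminus. The embryos were whole, of both sexes and 0 to 24 h old, so cell types and stages cannot be told apart in the values. The labels give 1 group with biological replicates 2 and 3, and no untreated group or other genotype, so no comparison between conditions was possible. The peak lists held 30000 peaks for replicate 2, 30000 for replicate 3 and 30000 for the pooled libraries. A list thresholded by irreproducible discovery rate (IDR, a measure of how far replicates rank peaks alike) held 5048 peaks. These were the 5048 strongest pooled peaks with unchanged values, so at the promoters below the IDR and pooled lists hold the same measurement, and the replicate lists are the separate ones. Read depth is unknown from the lists.

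Pericentromeric heterochromatin is the compact chromatin around the centromeres, built largely of satellite repeats and transposable elements and marked by methylated histone H3 lysine 9 and the protein HP1a. It silences many genes that are moved into it, yet some essential genes reside there (that the 8 are essential is background, not measured by ChIP-seq). The best studied, lt and rl, are known to need this surrounding chromatin for normal expression, and such genes often have long introns filled with transposon remnants.

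In the annotation, each of the 8 genes lay in the run of repeat-rich 100-kb bins that borders its centromere, between 441 kb (d4) and 4629 kb (rl) inside the run's outer edge. Bins counted as repeat-rich with a soft-masked share of 25% or more or a share of annotated transposable element of 20% or more, and a run could bridge 1 bin that was not. When no bin was bridged, lt and cta were the 2 genes left inside a run. The genes were long, with a median of 27.7 kb, against 1.78 kb for the 379 protein-coding genes of the pericentromeric runs, which include them, and 2.17 kb for all protein-coding genes. Spf30 was the exception at 1.67 kb, and Nipped-A was the longest at 73.1 kb. A median of 30.3% of each gene was soft-masked, against 17.2% in the runs and 8.41% over all genes. Annotated transposable elements filled 53.9% of Nipped-A, 46.7% of Nipped-B, 56.5% of d4, 33.7% of gus and 12.7% of rl, and 0% of lt, cta and Spf30. These shares count only elements with an entry in the gene models. Of lt 35.8% was soft-masked and of cta 25.9%, so 0% does not mean free of repeats. The sources used here do not say how reads were placed in repeats, and the part of repeats in the peaks was not tested.

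The promoter sequences under the strongest summits of lt, cta and Spf30 are shown to give the letters under promoter summits on 2L and 3L. Windows of the other 5 genes, of which gus, Nipped-A and d4 have stronger pooled peaks than cta and lt, are not shown here. Each is the 120 bases before the start site, 5′ to 3′ on the plus strand, from genome Release 6, the sequence of dm6. Capitals mark the word GTGGGA and the word TATAAA, which is spelled TTTATA where it reads on the minus strand. The spans were 2L:22924675-22924794 for lt, 2L:22981696-22981815 for cta and 3L:23714903-23715022 for Spf30, and none overlaps an annotated UTR.
lt: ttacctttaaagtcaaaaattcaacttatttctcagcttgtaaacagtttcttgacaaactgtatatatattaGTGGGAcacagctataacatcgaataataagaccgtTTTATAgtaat
cta: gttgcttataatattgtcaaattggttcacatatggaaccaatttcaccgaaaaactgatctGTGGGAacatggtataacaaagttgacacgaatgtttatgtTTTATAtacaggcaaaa
Spf30: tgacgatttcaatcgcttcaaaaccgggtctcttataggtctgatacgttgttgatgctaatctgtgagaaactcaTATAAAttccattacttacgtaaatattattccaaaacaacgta
The pooled summit lay at base 63 of the lt sequence, base 79 of the cta sequence and base 84 of the Spf30 sequence, counted from 1 at the 5′ end. GTGGGA begins at base 74 in lt and at base 63 in cta. All 8 windows of this kind were rich in A and T, with 64.2% to 74.2% (median 68.8%), against a median of 62.5% over bound genes and 60% over all protein-coding genes. Soft-masked repeat took 71.7% of the lt window, 16.7% of the cta window and 0% of the Spf30 window.

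A search for 8 motifs on both strands gave few shared words in these windows of 120 bases. TATAAA, the core of the TATA box, was in the windows of lt, cta, Nipped-A, d4 and Spf30, which is 5 of 8, against 19.9% of bound genes and 23.8% of all protein-coding genes. No set place or strand was required, so these matches are not called TATA boxes. In the sequences shown, the match began at offset -11 bp in lt and -17 bp in cta, both on the minus strand. In Spf30 it began at -44 bp on the plus strand. GTGGGA was in the windows of lt, cta and gus, which is 3 of 8, against 3.38% of bound genes and 3.46% of all. GTGGGA and its variant GTGGAA were picked after the sequences had been read, so these shares cannot stand as evidence. GTGGAA was in 0 of 8 windows and in 6.23% of all. TATCGATA, the DNA replication-related element, was in 0 of 8 windows, against 12.6% of bound genes and 6.48% of all. CGATA, the core word of the insulator protein BEAF-32, which lies within TATCGATA, was in the Nipped-A window, against 46% of bound genes and 30.7% of all. GAGAG, the GAGA word, was in the Nipped-B window and in 15.3% of all, while CAGCTG, an E-box, and GGTCACACT, a core word of the M1BP motif, were in 0 of 8 windows and in 8.54% and 2.37% of all. A match is a run of letters and says nothing of which protein is there.

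Windows of 101 bases centred on summits were searched for the same words. They overlap the windows above in part, so they are not a separate look. GTGGGA and GTGGAA were picked after these sequences had been read, so their shares here cannot stand as evidence either. The genes own 10 IDR summits ranked to 150, because d4 and gus have a pair each. GTGGGA lay in 4 of the 10 (1 each of lt, cta, Nipped-A and gus), against 2.86% of the other 140 summits of that rank and 2.67% of the summits ranked lower. GTGGAA lay in 2 of the 10 (at d4 and rl), against 16.4% and 5.96%. TATAAA lay in 4 of the 10, against 30% and 22.8%.

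All 8 genes had an IDR summit within 500 bp of a start site, where 30.7% of all protein-coding genes did. All 8 were also called among the 5048 strongest peaks of replicate 2 (29.8% of all genes) and of replicate 3 (30.8%), which makes 8 of 8 in both replicates (26.2%). The same 8 were called with the stronger 2524 IDR peaks (18.0% of all genes) and with the relaxed pooled list (46.3%). The choice of the genes used these peaks, so nothing is read from the counts. Below, signal is divided by that of the median IDR peak, or, in a replicate's list, by the median over peaks matched to IDR summits within 250 bp, and is written as so many times. A value of 1 is thus an ordinary IDR peak on any list. The strongest promoter peak of the 8 genes ran between 15.2 and 51.9 times in the pooled list (median 41), between 25.1 and 69.1 times in replicate 2 (median 54.8) and between 7.97 and 37.9 times in replicate 3 (median 27.1).

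Among the signalling genes, rl encodes the MAP kinase ERK, which carries receptor tyrosine kinase signals. The rl peak was the weakest of the 8 in all lists, at 25.1 times in replicate 2 (rank 106), 7.97 times in replicate 3 (rank 212) and 15.2 times in the pooled libraries (rank 138). It also differed most between the replicates, by a factor of 3.15 in signal and by 118 bp in the place of the summit. The pooled summit lay 77 bp before the inner of 2 start sites, at 2R:1071975, and 436 bp after the outer one at 2R:1071462. A further summit 128 bp past the inner start reached 2.91 times. The gene runs over 2R:1071462-1125927 on the plus strand.

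cta (2L:22981816-22992951, plus strand) encodes concertina, a G protein alpha subunit that drives cell shape change at gastrulation. Its promoter peak stood at 52.6 times in replicate 2 (rank 24), 24.4 times in replicate 3 (rank 49) and 38.1 times in the pooled libraries (rank 33). The replicate summits were 2 bp apart, at offsets of -40 bp in replicate 2 and -38 bp in replicate 3 from the start (negative is upstream).

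Of the genes of chromatin and transcription, Nipped-A (2R:5177965-5251022, minus strand) encodes the Tra1 subunit of the SAGA and Tip60 histone acetyltransferase complexes. Its peak reached 59.6 times in replicate 2 (rank 13) and 31.2 times in replicate 3 (rank 22), with summits 1 bp apart, 107 bp before its single start in replicate 3. Nipped-B (2R:4691672-4729017, minus strand) encodes the protein that loads cohesin onto chromosomes. Its peak was at 28.4 times in replicate 2 (rank 93), 19.3 times in replicate 3 (rank 81) and 25.1 times pooled (rank 84), the smallest difference between replicates of the 8 genes (1.47 times). Both genes thus had 1 dominant summit just before 1 start, and Nipped-B had the lower one in both replicates.

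d4 (2R:5259004-5295965, plus strand), which encodes a PHD-finger protein of the family named after it, had 2 starts that differed widely. At the downstream start the peak was at 56.9 times in replicate 2 (rank 17) and 29.8 times in replicate 3 (rank 26). At the upstream start it was at 5.02 times in replicate 2 (rank 395) and 3.78 times pooled (rank 495), with summits 37 and 39 bp past the start. In replicate 3 the strongest summit of that window was a different one, 490 bp past the start, at 2.74 times (rank 605). Inside the interval over the upstream start, 1692 bp into the gene and in an intron, stood a summit of 55.1 times in replicate 2 (rank 20) and 28.9 times in replicate 3 (rank 27). Its position was the same base in both replicates and in the pooled list. The strongest signal near the upstream start of d4 was therefore past the 500 bp window, not in it.

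gus (2R:5116990-5128321, minus strand) encodes gustavus, a SPRY-domain and SOCS-box protein that binds the germline helicase Vasa. Both of its starts carried a strong peak. The outer start had 62.1 times in replicate 2 (rank 10) and 37.9 times in replicate 3 (rank 5), and the inner start at 2R:5122247 had 45.2 times in replicate 2 (rank 41) and 28.7 times in replicate 3 (rank 28). The summits lay 42 bp (outer) and 52 bp (inner) before their starts in the pooled list. Spf30 (3L:23715023-23716689, plus strand) encodes a splicing factor with a Tudor domain. Its peak was at 69.1 times in replicate 2 (rank 6) and 31.7 times in replicate 3 (rank 20), and 1 IDR summit, 37 bp before the outer start, served both starts, which lie within 500 bp of it. These 2 genes had the highest pooled signals of the 8.

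lt (2L:22924795-22943135, plus strand) encodes the Vps41 subunit of the vesicle tethering complex that delivers cargo to lysosomes and pigment granules. Its peak was at 38.5 times in replicate 2 (rank 60), 18.3 times in replicate 3 (rank 83) and 28.4 times pooled (rank 73), 58 bp before its only start. It was the third lowest of the 8 pooled signals, above those of Nipped-B and rl. The order of neighbours in signal was not stable between the replicates: gus led in replicate 3 and Spf30 in replicate 2.

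**Figure D1:**
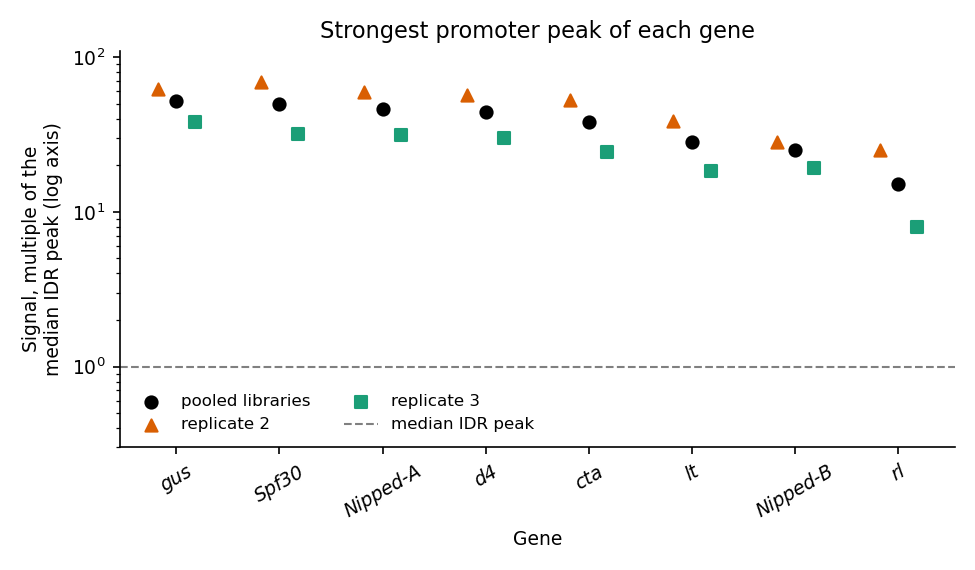
Signal of the strongest promoter peak of each of the 8 genes, divided by that of the median IDR peak (log axis), in the pooled libraries (circles), replicate 2 (triangles) and replicate 3 (squares), with the median IDR peak as a dashed line. Replicate 2 is above replicate 3 at every gene, and rl is lowest in all 3, at 7.97 times in replicate 3.

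Replicate 2 gave the higher multiple at all 8 genes, by 1.47 to 3.15 times (median 2). The same held for 146 of the 150 strongest IDR peaks, with a median ratio of 1.7, but for 2497 (50.8%) of the 4916 IDR peaks that had a match in both replicates, with a median ratio of 1.01. Other strong peaks thus shared the gap. Positions were steadier than heights. The replicate summits were 1 to 15 bp apart at 7 genes and 118 bp apart at rl. The pooled summits of the 8 genes lay 37 to 119 bp before a start, at a median offset of -65 bp, while over all bound genes the median offset was -116 bp.

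The peak intervals were wide. They spanned 2698 bp (lt) to 8522 bp (d4) in the pooled list, 1926 to 5584 bp in replicate 2 and 2285 to 6174 bp in replicate 3. The narrowest of them was wider than 97% of IDR intervals, and 1.19% of all protein-coding genes had a strongest promoter peak at least as wide. Other strong peaks were wide too: with each peak counted, the 150 strongest IDR peaks had a median width of 4469 bp, and all IDR peaks one of 470 bp. The interval of lt reached 1128 bp before the summit's start site and 1569 bp after it, while that of Spf30 reached 1867 bp before it and 3073 bp after it and so covered the whole gene. At gus the intervals of the 2 starts, 7223 and 6199 bp wide, overlapped each other. No gene shared its promoter summit with a protein-coding gene: 0 of 8 had another such start within 500 bp of the summit. The start of a long non-coding RNA, lncRNA:CR43256, lay that close at the outer gus start. Other lncRNA starts lay further off in the intervals of rl, Nipped-A and Nipped-B.

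**Figure D2:**
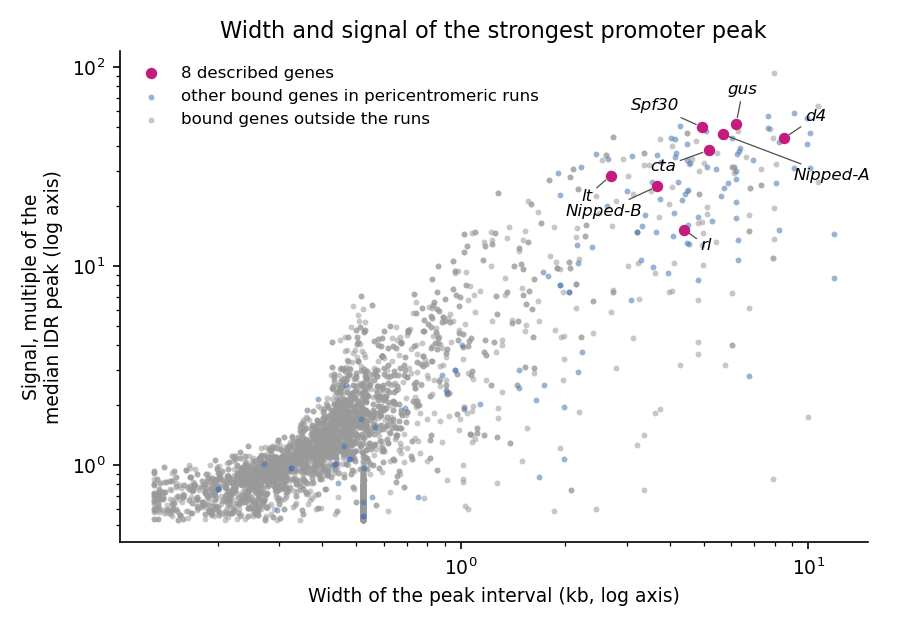
Width of the peak interval (kb, log axis) against signal (multiple of the median IDR peak, log axis) for the strongest promoter peak of each bound protein-coding gene, with the 8 genes as large labelled points, other bound genes of the pericentromeric runs in blue and bound genes outside them in grey. The 8 genes sit among the widest and strongest points, with intervals from 2698 to 8522 bp, beside many other genes of both kinds.

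Most intervals held several summits. At Nipped-B, 3 weaker summits followed the main one upstream, at 329, 1350 and 1575 bp before the start and at 4.38, 2.26 and 1.22 times. The 500 bp limit of the promoter window fell between such summits. Just inside it were the d4 summit at 320 bp after the upstream start (3.59 times) and the Nipped-B summit at 329 bp. Just outside were the d4 summit at 526 bp (2.72 times) and the Nipped-B summit at 1350 bp.

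Inside the genes, IDR summits more than 500 bp from every start of the gene were few and mostly weak. There were 15, in cta (1), Nipped-A (4), Nipped-B (3), d4 (3) and gus (4), and none in lt, rl and Spf30. The cta summit and all 4 gus summits lay in the wide pooled intervals of promoter peaks, so these 2 genes count only through such summits. The d4 summits 526 and 1692 bp past the upstream start lay in such an interval too. Summits of this kind were thus in 5 of 8 genes, or 62.5%, where 14.5% of the genes in the runs and 4.84% of all protein-coding genes had one. The count was 3 with 1 summit per merged interval, and 3 with the stronger 2524 IDR peaks. The 8 genes are much longer than either set, and the part of length in these shares was not tested. All 15 were in introns, and 12 were under 1.5 times the median IDR peak (median of the 15, 0.89 times). Each had a summit within 250 bp in both replicates, though a pair in Nipped-B shared the same one. For the d4 summit at 526 bp, both matches lay within 500 bp of the upstream start. The replicate 3 match was the promoter-window summit 490 bp past that start. Neither replicate thus had a matched summit for it outside the promoter window. An annotated transposable element held 7 of the 15. Of these, 5 were in copies of INE-1, a short Helitron-like element that is abundant in pericentromeric DNA, 1 in Cr1a and 1 in 1360. These 7 were in gus, Nipped-B and Nipped-A, of which such elements fill 33.7%, 46.7% and 53.9%. d4, at 56.5%, and cta, at 0%, had none. The share of the sequence in INE-1 alone was not computed, so no leaning to it is read. Soft-masked bases held 3 of the 15.

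The strongest of these besides the d4 intron summit lay in Nipped-B, 27680 bp into the gene, in an INE-1 copy. It was at 3.65 times in replicate 2 (rank 540), 2.8 times in replicate 3 (rank 592) and 3.51 times pooled (rank 528). The 4 summits in Nipped-A were at 0.592 to 0.991 times, the strongest of them 67082 bp from the start. In gus, a summit in the 1360 element 1686 bp past the outer start was at 1.29 times in replicate 2 and 1.27 times in replicate 3. cta had 1, in an intron 1963 bp past the start and within the pooled interval of its promoter peak. It was at 1.26 times in replicate 2 (rank 1742), 0.675 times in replicate 3 (rank 3693) and 0.972 times pooled. The 81 bases centred on it, 2L:22983739-22983819 on the plus strand of Release 6, are shown because they hold a complete TATCGATA (capitals), at base 70, which the promoter window of cta did not.
cta intron: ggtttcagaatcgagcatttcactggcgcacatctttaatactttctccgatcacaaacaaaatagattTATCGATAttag
TATCGATA lay in windows of 81 bases at 4.52% of all IDR summits.

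**Figure D3:**
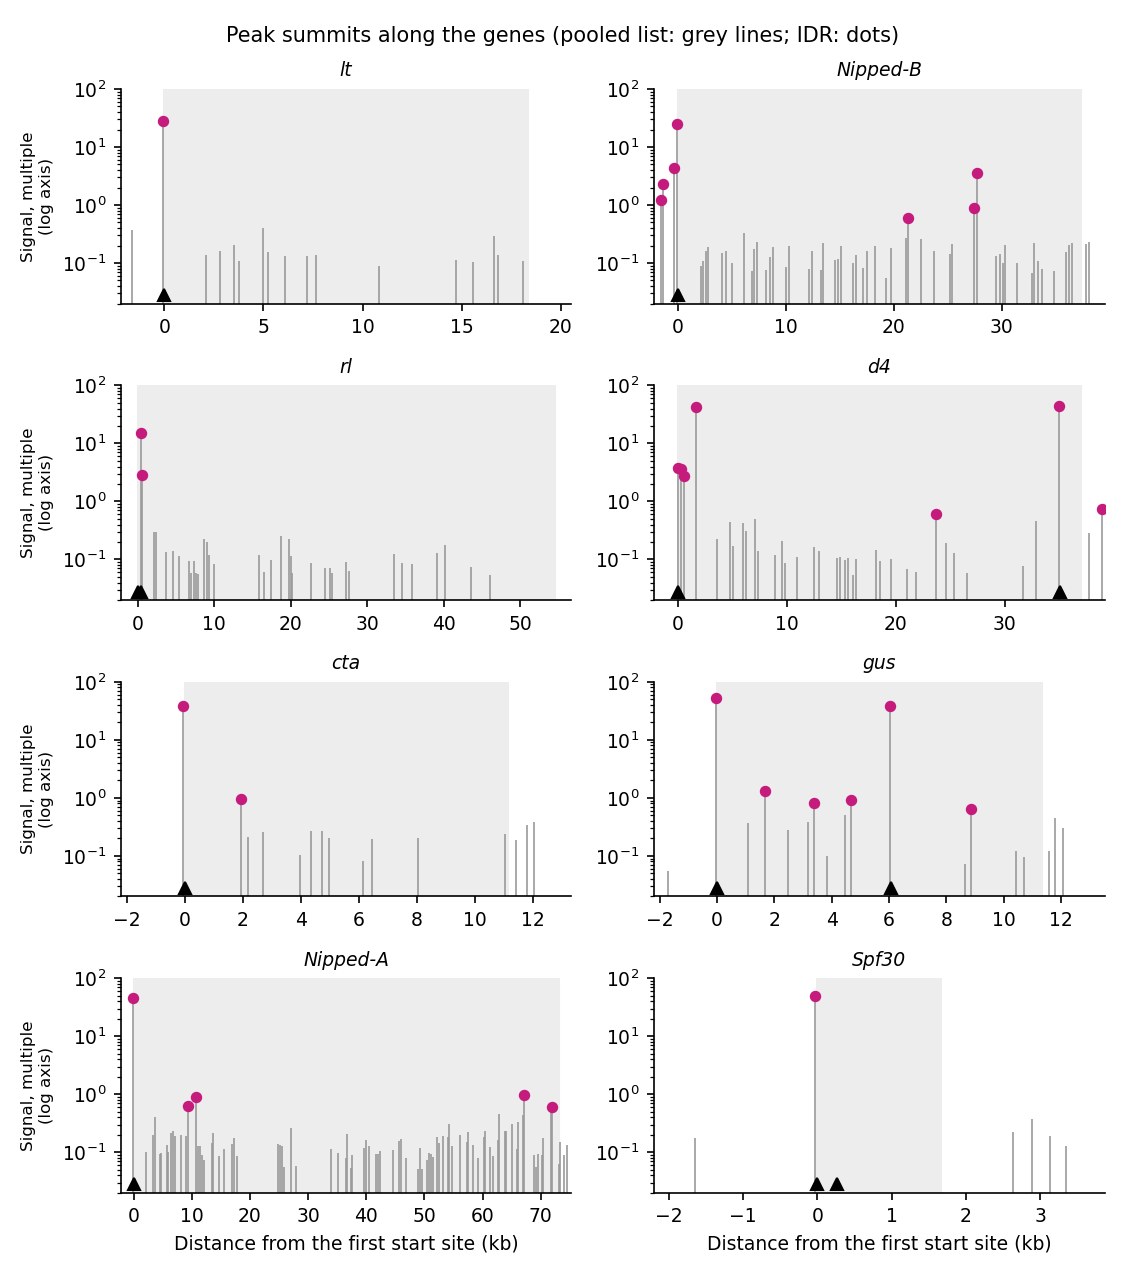
Pooled peak summits along and just beside each gene, by distance from its outermost start site (kb), against signal (multiple of the median IDR peak, log axis), with grey lines for all pooled summits, dots for IDR summits, triangles for annotated start sites and shading for the gene. The summits at starts stand above a low field inside the genes, except at d4, where an intron summit at 42.4 times is as tall as the one at the downstream start.

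The longer, relaxed lists held many more weak summits inside the genes. The counts in replicate 2, replicate 3 and the pooled libraries were 82, 81 and 86 in Nipped-A, 50, 46 and 51 in Nipped-B, and 36, 31 and 32 in d4. They were 38, 29 and 34 in rl, 15, 16 and 15 in lt, 15, 9 and 11 in cta, and 12, 10 and 12 in gus, with 0 in all 3 lists for Spf30. Similar counts do not mean the same summits. Of the 248 in replicate 2, 156 (62.9%) had a match in replicate 3, against 46.4% over all protein-coding genes. The share ran from 40% in cta to 91.7% in gus. Per kb of gene, the 7 genes longer than 5 kb had a median of 0.988 pooled summits (0.624 to 1.37), against 0.795 for the 130 genes of that length in the runs and 0 for the 3482 of that length in all. The 130 include these 7 and ranged up to 1.63, so the 7 lay within their range.

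Signal inside the genes stayed far under the promoters for 5 of the 7 long genes. The strongest promoter peak was 78.5 times the strongest summit inside the gene in replicate 2, 60.2 times in replicate 3 and 71.9 times pooled for lt. For rl the ratio was 47.6, 30 and 50.8 in the same lists. It was 59.1, 36.8 and 46.3 for Nipped-A, 41.7, 36.1 and 39.2 for cta, and 48.3, 29.8 and 39 for gus, so the lowest of these was still 29.8. The ratio was 7.15 in Nipped-B, and 7.76 and 6.88 in replicates 2 and 3. It was 1.04 in d4, and 1.03 in each replicate, because of the intron summit. The soft-masked share of the summits was below that of the sequence in both replicates and the pooled list for rl, cta, Nipped-A and d4, 4 of the 7. In rl it was 23.7% of summits in replicate 2, 44.8% in replicate 3 and 35.3% pooled, against 49.1% of the sequence. Some gaps were small or rest on few summits. d4 had 22.2% in replicate 2 (8 of 36 summits) and 22.6% in replicate 3 (7 of 31), against 23.7% of the sequence. In cta 2 of 15 summits were soft-masked in replicate 2 and 1 of 9 in replicate 3. In gus the share was above the sequence's 39% in all 3 lists, at 50% in replicate 2, 40% in replicate 3 (4 of 10 summits) and 41.7% pooled. In lt it was 13.3% in replicate 2, 37.5% in replicate 3 and 20% pooled, against 36.2% of the sequence, so the replicates fell on either side. Nipped-B had 26% in replicate 2, 30.4% in replicate 3 and 41.2% pooled, against 30.4% of the sequence, so the pooled list alone was above it. Soft-masked bases and annotated transposable elements are not the same sequence. The soft-masked share of the gene was the lower of the 2 in Nipped-A (30.3% against 53.9%), Nipped-B (30.3% against 46.7%) and d4 (23.9% against 56.5%). It was the higher in lt, rl, cta and gus. The share of these summits in annotated elements is not given here, so no avoidance of repeats is read.

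Signals near that of the 8 genes occurred elsewhere in the runs. Without the 8, 121 of the 371 protein-coding genes in the runs were bound (32.6%, against 30.7% of all genes), at a median of 14.2 times. This share rests on the bridging of 1 bin: in runs without it, 63.6% of 33 genes were bound, lt and cta included, against 34% of the 379 genes of the bridged runs. Outside the runs 4155 of 13566 genes were bound (30.6%), at a median of 1.11 times. A strongest promoter peak ranked at or above that of rl was found at 143 genes, 1.03% of all. These were the 8 genes, 56 other genes of the runs, 33 genes of chromosome 4 and 46 genes of the arms outside the runs. By arm, with the 8 genes counted in, the 5 genes on 2R share a run in which 41 of 60 genes were bound, at a median of 26.4 times. Spf30 lies on 3L, where 28 of 42 were bound at a median of 22.4 times. lt and cta lie on 2L, where 29 of 177 were bound, at a median of 12.4 times.

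**Figure D4:**
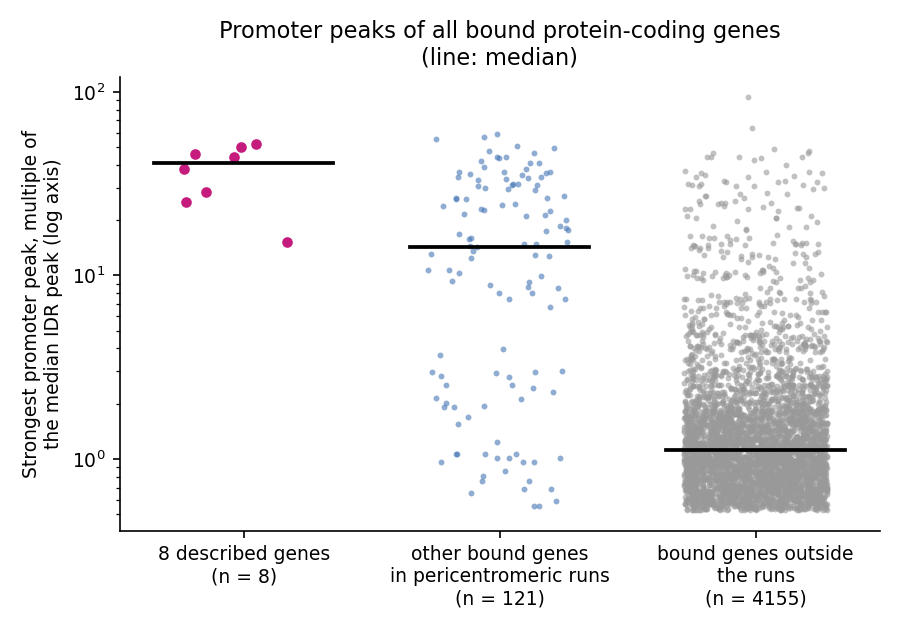
Signal of the strongest promoter peak (multiple of the median IDR peak, log axis) of the 8 genes, of the 121 other bound genes in the pericentromeric runs and of the 4155 bound genes outside them, with a point for each gene and a line at the median. The medians are 41, 14.2 and 1.11 times, and the highest values of both other sets are above those of the 8 genes.

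Other named genes of pericentromeric DNA, listed with earlier results of these data known, had similar peaks in part. Of 21, 15 were bound (71.4%), at 0.865 to 41.9 times with a median of 22.8, and 9 reached the level of rl. The strongest were RpL5 and RpL15, ribosomal proteins, at 41.9 and 31 times, sxc, the O-GlcNAc transferase, at 39 times, vtd, the cohesin subunit Rad21, at 36.8 times, and Dbp80, an RNA helicase, at 35.5 times. Yeti (27.2 times), RpL38 (24.6), Gprk1 (22.8) and Haspin (16.7) followed. Myo81F (12.7), Parp1 (8.9), Snap25 (2.53), AGO3 (2.02), su(f) (1.95) and Cht10 (0.865) were lower than all 8 genes. No IDR summit lay at the starts of uex, Scp1, stw, Gfat1, spok and nvd.

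The nearest protein-coding neighbours differed widely in signal. Distances here are gaps between the nearest ends of genes, not between start sites. Nipped-A and d4 are neighbours 7.98 kb apart, and sxc follows d4. The strongest d4 promoter peak is at the downstream start, 2R:5294063, not at the start nearer to Nipped-A. gus stands between CG3107 (49.3 times) and Atf6 (23.8 times), and Nipped-B between CG17883 (50.4 times) and conu (18.1 times). By contrast, the gene next to cta on the other side from lt is Cht10, a chitinase gene with a gap of 6.62 kb. Its peak was at 0.936 times in replicate 2 and 0.74 times in replicate 3. Cht10 lies on the minus strand over 2L:22999574-23025915, so its 5′ end faces away from cta. The neighbour of lt away from cta, CG17715, had no IDR summit at its start. Spf30 lies between CG40298 (9.17 times) and AGO3, an Argonaute of the piRNA pathway (2.5 times in replicate 2 and 1.48 times in replicate 3). rl is isolated, 120 kb from CG40498 (0.689 times) and 138 kb from CG40191 (36.6 times). None of these neighbours was called from the same peak as one of the 8 genes.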

How the data were processed

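ChIP-seq peaks from 1 group of 2 biological replicates were analysed on dm6. Per the notes deposited with the files, peaks were called for either replicate and for both pooled, with the same control, and the IDR list was made from those lists. The control was not analysed here, and neither the read aligner nor the program that called peaks is named in the sources used here. The deposited signal of a peak, on an unstated scale, was ranked within a list or divided by a median of it. The deposited −log10 q was the same for all 5048 IDR peaks and was not used. The summit is the deposited one. Read depth is unknown, so no counting interval is given.

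Start sites came from the gene models of Ensembl release 115, and sequence and soft-masking from genome Release 6, whose chromosomes contain every peak. Offsets, overlaps and motifs were computed in Python 3.11.15 with numpy 2.4.6 and pandas 2.3.3, and plotted with matplotlib 3.10.9. The calling of genes from summits and the merging of intervals were tested on simulated data. The motif search, the offsets and the matching of replicate summits were not. All 8 genes, all bound and unbound genes of the named list, the nearest protein-coding neighbours and the summits beside the 500 bp limit were named. Parp and Cht3 of the list were matched to Parp1 and Cht10 by synonym. The members and lists were chosen with earlier results of these data known. The bridging of 1 bin in a run was added after the bins had been seen. Without a second group, no test was made.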

Additional observations from a re-analysis of the deposited data

How the results depend on the processing

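The count of 8 of 8 genes with a promoter peak was the same with windows of 200 and 1000 bp, interval overlap, the stronger part of the IDR peaks (2524 peaks, called at 18.0% of all genes), either replicate alone and 1 summit per merged interval. The count in both replicates was 8 under each of its alternatives. Nothing is read from these unchanged counts, because the genes were chosen with these peaks known. Their pooled ranks were 6 to 138 and their pooled summits lay 37 to 119 bp before a start. The other windows, interval overlap and the stronger part of the IDR peaks therefore could not change the count. The other named genes numbered 14 to 17 bound, against 15. The 5 genes with an IDR summit inside the gene numbered 3 with 1 summit per merged interval and 3 with only the stronger IDR peaks, both of which hold fewer summits by construction, and 5 to 6 with 1 replicate left out. Leaving out 1 replicate gave promoter signals between 7.97 and 69.1 times. Dividing by the median of the whole relaxed pooled list, which is lower, gave 109 to 373 times, a change of unit. The runs were first defined to end at the first bin that was not repeat-rich. That rule gave 33 genes, of which 63.6% were bound, against 34% of the 379 genes in the runs that bridge 1 bin, a change chosen after seeing the data. No paired analysis was possible because the labels give 1 group. Depth is unknown, and 2 replicates give the spread only as a pair of values.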
